A study of Mus musculus with 6 samples.

Results

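Isolated single H2Bub peaks of myoblasts are the 1764 peaks of the myoblast list, out of 191324 on chromosomes 1 to 19 and X, that lie more than 10000 bp from the nearest other peak of that list on both sides. They are 0.922% of the myoblast peaks and 0.502% of the bases those peaks cover. The data are chromatin immunoprecipitation and sequencing of monoubiquitylated histone H2B in C2C12, a mouse myoblast line, which the source names spell C1C12. The tested cells were myotubes (MT), brought to confluence and then kept for 4 days (96 h) in 2% horse serum with 1 change of medium after 2 days, and they were set against growing myoblasts (MB) in 10% fetal bovine serum, harvested at about 40% confluency. Each group had 3 libraries, all made from unmodified cells with chromatin cut by micrococcal nuclease (MNase) and with the same antibody clone; the labels give every library its own lot number. The labels do not say whether replicates were separate cultures; every p-value here therefore rests on the spread among the deposited libraries alone, and that spread may be technical. The labelled cell type was not checked here, since no expression was measured.

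Ubiquitin on histone H2B is placed by the RNF20 and RNF40 ligases as RNA polymerase II moves along a gene, and deubiquitylating enzymes remove it. It therefore tends to cover the bodies of transcribed genes in long stretches, and it is linked to nucleosome handling during elongation and to methylation of histone H3 by the COMPASS and DOT1L enzymes. A peak that stands alone, without a second one nearby, is not the usual shape of this mark. Which genes or sequences lie at these peaks was not analysed here.

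The peaks were chosen from the myoblast list, so the myoblast signal in them, and the difference between the groups inside them, follows in part from the choice and is given as a description. Myotube reads did not enter that list as far as the sources say, and they are the independent readout. A density is given as reads per kb per 1000000 reads of the library (RPKM), or as a multiple of the density in 208685 windows of 10 kb that hold no peak of either list. The libraries held 8767810 to 14480532 reads in myotubes and 9293327 to 15903500 in myoblasts. Density in the peak-free windows was 0.358, 0.377 and 0.357 RPKM in myotubes and 0.221, 0.193 and 0.232 RPKM in myoblasts, so a value per total reads and a value per peak-free window can differ in size between the groups.

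The isolated peaks were narrow and shallow. Their median width was 274 bp, against 372 bp for the other myoblast peaks; 1556 of the 1764 were 100 to 400 bp wide, and the widest was 1964 bp. A nucleosome core holds clearly less DNA than the median peak. The median distance to the next myoblast peak was 18.9 kb, with 25% of the peaks beyond 36.7 kb and the farthest at 2433 kb. In the 3 myotube libraries together a peak held a median of 7 reads, with quartiles of 4 and 9 and a range of 0 to 58. In the 3 myoblast libraries together it held a median of 17 reads, with quartiles of 15 and 20 and a range of 12 to 175. The other myoblast peaks held medians of 9 myotube and 32 myoblast reads. The lower quartile in myoblasts was thus close to the lowest count in the set. In myotubes 342, 308 and 116 of them had no read in replicates 1, 2 and 3, and 7 had none in any; in myoblasts the numbers were 22, 8 and 0.

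Myotube reads were denser in the isolated peaks than beside them. The myotube density in the peaks was 0.757, 0.724 and 0.792 RPKM, against 0.497, 0.469 and 0.515 RPKM in the 5 kb flanks on both sides. The peak-to-flank ratio was 1.52, 1.54 and 1.54, a mean of 1.53 ± 0.0107 (SD, n = 3), and every myotube library was above 1. With 3 libraries the exact two-sided sign-flip permutation test cannot go below 0.25, and it gave p = 0.25. In myoblasts the same ratio was 3.01, 3.07 and 2.98, a mean of 3.02 ± 0.0453 (SD, n = 3), which the choice of peaks raises. Peak density itself was 0.758 ± 0.0338 RPKM in myotubes and 1.81 ± 0.0923 RPKM in myoblasts, a ratio of 0.419, and the groups did not overlap. This ratio follows in part from the choice of peaks, and no control library entered it, so it does not by itself measure a change of the mark. In bulk chromatin, fewer cells with the mark at a site and less mark per cell could not be told apart either.

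Part of the flanks held no reads at all. Of 176400 flank bins of 100 bp, 12.8% had no read in any of the 6 libraries and 22.2% had no myoblast read, whereas each isolated peak held at least 12 myoblast reads. When only flank bins with a myoblast read were kept, a choice made after the data were seen, the myotube ratio was 1.33, 1.35 and 1.34. It was still above 1 in each library and lower than with all bins.

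The excess in myotubes was centred on the peaks and reached somewhat beyond their edges. In the bins 250 bp to the left and right of the centre, the myotube mean was still 1.55 and 1.58 times the peak-free windows. Within 100 bp of the centre, density was 2.13 ± 0.161 times the peak-free windows in myotubes and 8.42 ± 1.08 times in myoblasts (SD, n = 3 each). At 500 to 1000 bp it was 1.42 ± 0.109 times in myotubes and 3.24 ± 0.438 times in myoblasts. At 4 to 5 kb the values were 1.33 ± 0.103 in myotubes and 2.53 ± 0.304 in myoblasts. Each library of both groups was thus lower at 4 to 5 kb than at 500 to 1000 bp. The fall outside the peak was small in myotubes. In myoblasts the shoulder was higher and sank further over several kb.

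**Figure D1:**
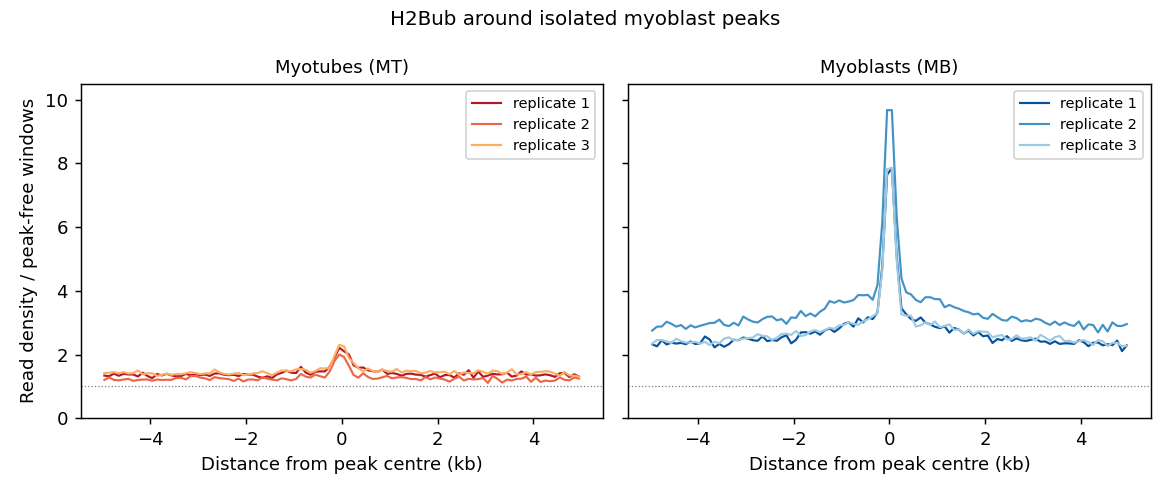
Read density in 100 bp bins around the centres of the 1764 isolated peaks, divided by the density of peak-free 10 kb windows, against distance in kb; each line is 1 library, myotubes on the left and myoblasts on the right. Myotubes peak at 2.13 times on average and myoblasts at 8.42 times within 100 bp of the centre, and both stay above 1 (dotted) out to 5 kb.

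The myotube excess was spread over many peaks and did not come from a few. With the 3 libraries of a group pooled after scaling, the peak-to-flank ratio of single peaks had a median of 1.48 in myotubes, with quartiles of 1.04 and 2.04, and was above 1 for 1357 of 1764 peaks (76.9%). In myoblasts the median was 3.02, with quartiles of 2.47 and 3.75, and every peak was above 1. A ratio of at least 2 was reached by 467 peaks in myotubes and 1645 in myoblasts. The myotube ratio over all peaks was 1.51, 1.53 and 1.51 without the 35 peaks that overlap a myotube peak, and 1.51, 1.53 and 1.504 without the 31 deepest peaks. Counts this low leave the ratio of any 1 peak imprecise: a myotube median of 7 reads is set against flanks that hold more.

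**Figure D2:**
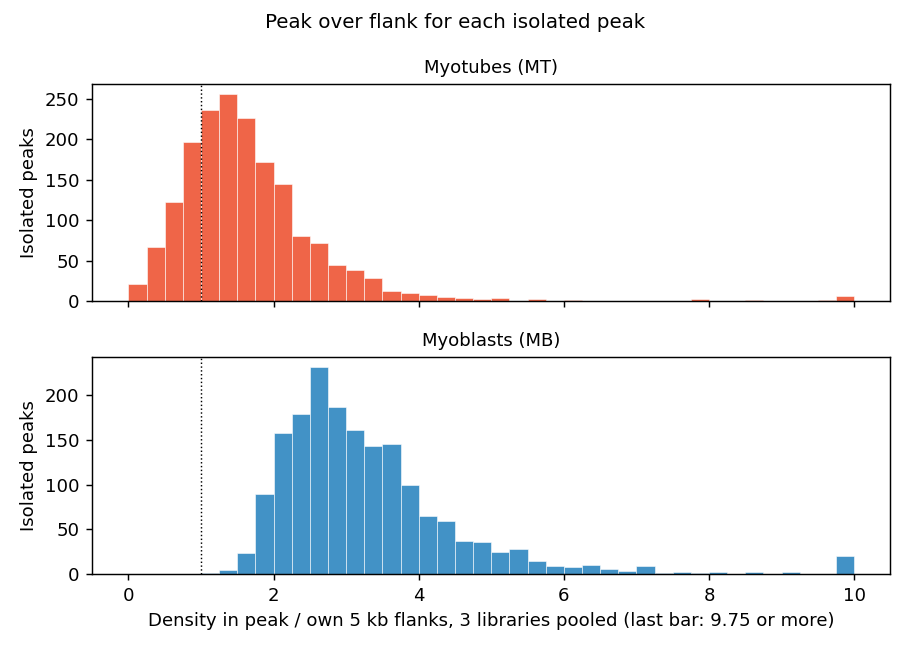
Number of isolated peaks by the ratio of density in the peak to density in its own 5 kb flanks, with the 3 libraries of a group pooled; myotubes above, myoblasts below, dotted line at 1. The myotube median is 1.48 and the myoblast median 3.02.

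The myotube excess was larger at peaks that were denser in myoblasts, and at peaks with sparser myoblast flanks. The 1764 peaks were ranked by their mean myoblast density and cut into 4 sets of 441. In the lowest set the myotube ratio of peak to flank was 1.37, 1.41 and 1.36, and in the second it was 1.45, 1.43 and 1.48. It reached 1.56, 1.66 and 1.60 in the third set and 1.78, 1.72 and 1.77 in the highest. Each myotube library had this order, and the ranges of the 4 sets did not overlap. Means were 1.38 ± 0.0277, 1.46 ± 0.0254, 1.61 ± 0.053 and 1.76 ± 0.0278 (SD, n = 3). All sets of peaks share the same libraries, so neither the ranges nor the SD among libraries measure the steps between sets. Myoblast means, which ranked the peaks, were 2.38, 2.76, 3.20 and 3.99. Width moved with the rank, with medians of 320, 280, 254 and 208 bp from the lowest set to the highest, while in 4 sets by width alone the myotube ratio was 1.64, 1.49, 1.505 and 1.55 from the narrowest to the widest. Myotube flank density was 0.504, 0.4997, 0.486 and 0.484 RPKM in the same order as the sets by myoblast density. When the peaks were instead cut into 4 sets of 441 by the myoblast density of their flanks, the myotube ratio was 1.82 ± 0.0848, 1.56 ± 0.0318, 1.45 ± 0.0586 and 1.38 ± 0.0161 from the sparsest to the densest flanks (SD, n = 3). Myotube density inside the peaks was 0.742, 0.763, 0.747 and 0.776 RPKM over these sets, while in their flanks it was 0.409, 0.489, 0.516 and 0.561 RPKM, so there the ratio moved with the flanks.

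**Figure D3:**
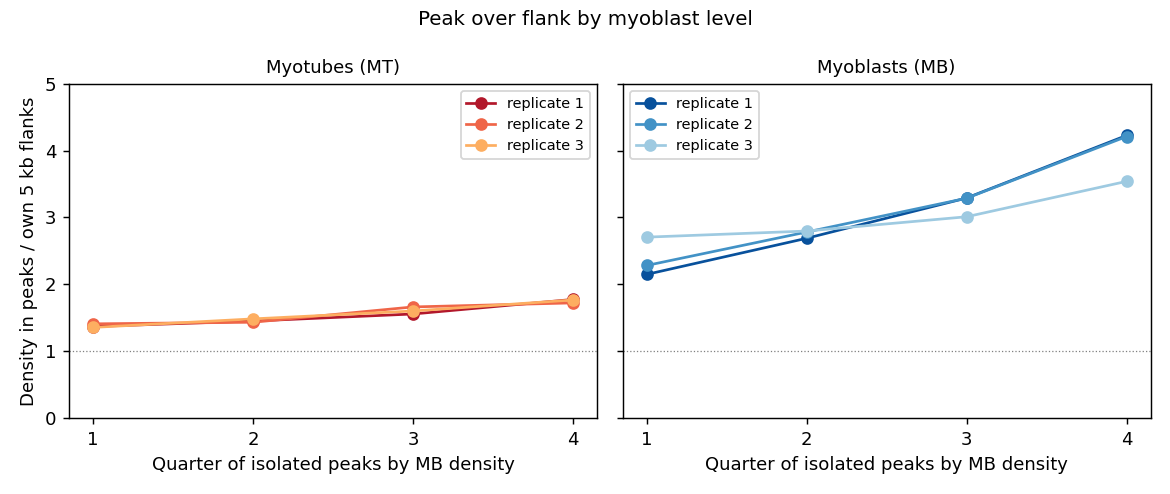
Ratio of density in the peaks to density in their 5 kb flanks for 4 sets of 441 isolated peaks, from the lowest (1) to the highest (4) mean myoblast density; each line is 1 library, myotubes left and myoblasts right. Myotube means go from 1.38 in the lowest set to 1.76 in the highest.

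The surroundings of the isolated peaks carried more reads than the peak-free genome in both groups. Flank density was 1.39, 1.24 and 1.44 times the peak-free windows in myotubes and 2.57, 3.20 and 2.61 times in myoblasts, means of 1.36 ± 0.104 and 2.80 ± 0.353 (SD, n = 3 each). Per total reads, it was 0.494 ± 0.0233 RPKM in myotubes and 0.598 ± 0.0261 RPKM in myoblasts, a difference of -0.104 RPKM with no overlap. The rule acts on myoblast density in the flanks in both directions, since it keeps other myoblast peaks out of them and places them beside a myoblast peak with a shoulder. The flank values of the groups are therefore a description, with no test.

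The myotube excess did not follow the distance to the next myoblast peak step by step. For the 934 peaks with a neighbour within 20 kb, the myotube ratio of peak to flank was 1.52 ± 0.0199. It was 1.53 ± 0.0304 for the 517 peaks at 20 to 50 kb, 1.64 ± 0.0433 for the 173 at 50 to 100 kb and 1.55 ± 0.169 for the 140 farther away (SD, n = 3). Over peak-free windows the flanks were at 1.39, 1.33, 1.33 and 1.31 in myotubes and at 2.97, 2.67, 2.51 and 2.45 in myoblasts. The classes share their libraries, so the SD among libraries does not measure the steps between them. Flanks of the 830 peaks beyond 20 kb were sparser than those of all 1764 in each library. In myoblasts they were at 0.526, 0.572 and 0.569 against 0.569, 0.619 and 0.607 RPKM. In myotubes they were at 0.483, 0.457 and 0.505 against 0.497, 0.469 and 0.515 RPKM. Flanks of even the 140 most remote peaks thus stayed above the peak-free level in both groups.

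Set against the rest of the myoblast list, isolated peaks were the weaker ones in each myoblast library, while the myotube libraries did not share a direction. In myotubes their density was 0.831, 1.13 and 0.891 times that of the other 189560 peaks, above 1 in replicate 2 and below 1 in the other libraries (mean 0.952 ± 0.16; exact two-sided sign-flip permutation test, n = 3, p = 0.75). In myoblasts the ratio was 0.521, 0.515 and 0.603. Limited to peaks of 200 to 400 bp in both sets, a choice made after the data were seen, it was 0.943, 1.14 and 0.996 in myotubes and 0.701, 0.669 and 0.764 in myoblasts. Without myotube replicate 1 the mean of the first ratio was 1.01. The nearest neighbours in kind were 1562 peaks in chains of 2 linked within 10 kb. Isolated peaks had the same level as these within 5% in each myotube library, at 0.995, 1.05 and 0.998 times their density.

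The order by the number of linked peaks was steep in myoblasts, while the myotube libraries did not share a direction. Over peak-free windows, myotube density was 2.08 ± 0.152 for isolated peaks, 2.06 ± 0.205 for chains of 2 peaks, 2.09 ± 0.253 for 3 to 5, 2.11 ± 0.373 for 6 to 20 and 2.27 ± 0.502 for over 20 (SD, n = 3). These means join opposite orders. Myotube replicates 1 and 3 rose at every step, while replicate 2 fell to 1.68 at 6 to 20 peaks and was at 1.69 for over 20. Isolated peaks were at 2.12 and 2.22 in myotube replicates 1 and 3, against 2.60 and 2.52 in chains of over 20, whereas replicate 2 had 1.92 against 1.69. Myoblast density was 8.45 ± 1.19, 8.79 ± 1.34, 9.83 ± 1.60, 13.6 ± 2.44 and 16.1 ± 3.34 in the same order, and it was higher in chains of over 20 than in isolated peaks in each library.

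**Figure D4:**
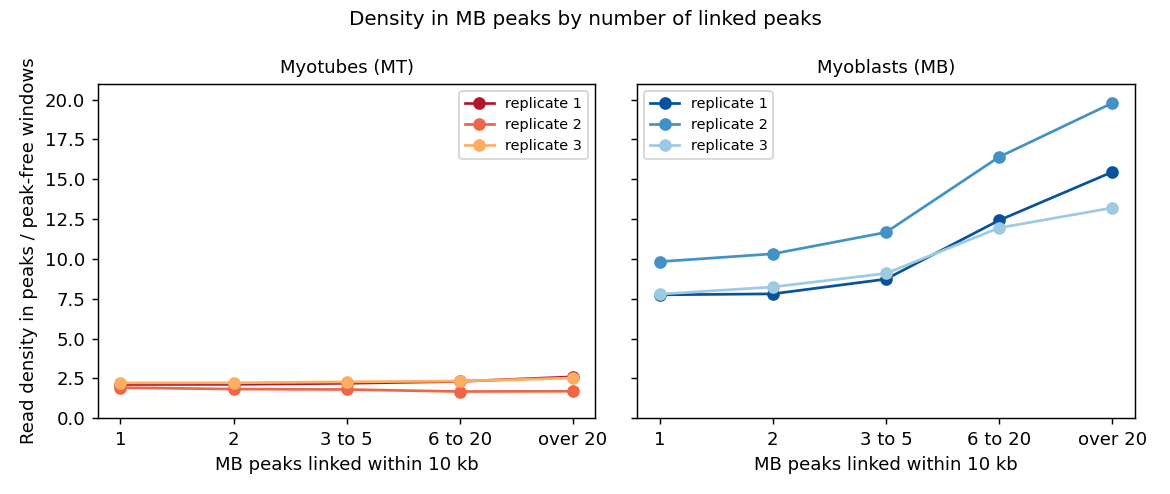
Read density in myoblast peaks over peak-free windows, by the number of peaks linked to each other within 10 kb (1 is an isolated peak); each line is 1 library, myotubes left and myoblasts right. Myoblast means go from 8.45 for isolated peaks to 16.1 in chains of over 20, and myotube means from 2.08 to 2.27.

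Myotube peaks were seldom called at the isolated sites. Of the 1764, 35 shared 1 bp or more with a myotube peak (1.98%, 95% Wilson interval 1.43 to 2.75), against 11923 of the other 189560 (6.29%, interval 6.18 to 6.40) and 28 of 1562 in chains of 2 (1.79%). Each group has 1 list, so these shares have no replicate error, and the intervals cover counting only. When 50% of the myoblast peak had to be covered, the share was 1.25% of the isolated (interval 0.825 to 1.88) and 1.91% of the other peaks (1.84 to 1.97). With a myotube peak within 1 kb it was 4.20% and 14.8%. The size of the gap thus depended on the overlap rule. Myotube peaks covered 1.25% of the isolated peak bases, 0.386% of the flank bases and 0.314% of all covered windows. The 35 sites had a myotube density of 1.21 ± 0.184 RPKM and a ratio to their flanks of 2.23 ± 0.16, and the 1729 others 0.746 ± 0.0301 RPKM and 1.51 ± 0.0116 (SD, n = 3). The myotube list chose the 35, so this gap is a description; their myoblast density was 1.92 ± 0.2 RPKM against 1.80 ± 0.0911 RPKM for the others.

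Peak by peak, calls among the isolated peaks were all lower in myotubes. The fit ran over all 191002 myoblast peaks with at least 15 reads in the 6 libraries (limma voom with Benjamini-Hochberg adjustment, adjusted p under 0.05), of which 80.6% were called lower and 0% higher. Of the isolated peaks 1760 passed that floor, 766 were lower (43.5%) and 0 were higher. At an unadjusted p under 0.05 861 were called, 0 of them higher. By limma-trend 873 isolated peaks were lower and 0 higher, against 161954 lower among all 191002 peaks tested. The median log2 fold change was -1.24 for isolated peaks and -1.77 for all peaks tested, and by limma-trend, which was run on log2(reads per 1000000 + 0.5) and so understates changes at low counts, it was -0.50 and -0.87. As the list was chosen on myoblast reads, nothing about the direction is drawn from these counts, and isolated peaks held fewer reads, which limits what can be called. Calls came to 1574 of 1760 isolated peaks when libraries were scaled on peak-free windows, against 187529 of all 191002 peaks. The medians there were -1.98 for isolated and -2.52 for all peaks. Without myoblast replicates 1, 2 and 3 calls came to 554 of 1532 isolated peaks tested, 383 of 1440 and 419 of 1113. Without myotube replicates 1, 2 and 3 they came to 508 of 1750, 358 of 1749 and 451 of 1742. Fewer isolated peaks passed the floor of 15 reads in these fits, so the counts are not out of the same number.

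A few isolated peaks were deep enough to read 1 by 1: 31 held at least 60 reads over the 6 libraries. All 31 had a negative log2 fold change, 26 of them were called lower, against 80.6% of all peaks tested, and their median was -1.27. They passed this floor mostly through myoblast reads, so nothing is read from the direction or the count. The peak at chromosome 8, 64970121 to 64970775 (mm9), 654 bp wide and 739 kb from its nearest neighbour, had the highest mean myoblast density of those at least 200 bp wide. It had 0.872, 0.661 and 0.739 RPKM in the myotube libraries and 4.77, 4.81 and 3.08 RPKM in the myoblast libraries. The groups did not overlap, with a log2 fold change of -2.34 (limma adjusted p = 6.06e-06, SE 0.42). Its flanks were at 0.308 RPKM in myotubes and 0.227 RPKM in myoblasts, so myotube density, which rested on 5, 4 and 7 reads in the peak, was above that of the flanks; no myotube peak is listed there.

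The peak at chromosome 19, 35377757 to 35378903, 1146 bp wide and 331 kb from the next one, had 1.59, 0.849 and 1.51 RPKM in myotubes and 3.29, 4.82 and 4.17 RPKM in myoblasts. Every myotube library was below every myoblast library there (log2 fold change -1.63, SE 0.34, limma adjusted p = 7.83e-05). Flank density was 0.409 RPKM in myotubes and 0.160 RPKM in myoblasts, the reverse of the order in the peak. At chromosome 10, 81567673 to 81568200, density was 1.08, 0.820 and 0.786 RPKM in myotubes and 5.31, 4.52 and 2.74 RPKM in myoblasts, again without overlap (limma adjusted p = 6.26e-05, log2 fold change -2.09, SE 0.43). Its flanks were at 0.0817 RPKM in myotubes and 0.324 RPKM in myoblasts. The widest isolated peak, chromosome 2, 25413916 to 25415880, had 0.929, 0.826 and 0.949 RPKM in myotubes and 2.25, 2.38 and 2.72 RPKM in myoblasts. It was called lower (limma adjusted p = 0.00027 at a log2 fold change of -1.41, SE 0.33), and a myotube peak covered 363 bp of it.

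Among the 31 the most negative log2 fold change was -2.68, at chromosome 15, 98782209 to 98782946. A peak at chromosome 10, 128062373 to 128062912, had -2.57, followed by the chromosome 8 and chromosome 10 peaks above. The chromosome 15 peak had 1.24, 0.147 and 0.281 RPKM in myotubes and 2.48, 3.10 and 2.47 RPKM in myoblasts, and the groups did not overlap (limma adjusted p = 2.18e-05). The fifth lay at chromosome 14, 54982661 to 54983330 (log2 fold change -1.81, limma adjusted p = 0.00159).

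At the other end stood the deep peaks with the smallest difference between the groups. The peak at chromosome 4, 140080174 to 140080526, had 1.62, 2.76 and 3.34 RPKM in myotubes and 1.83, 4.87 and 2.14 RPKM in myoblasts. These ranges overlapped (limma log2 fold change -0.05, SE 0.41, adjusted p = 0.90), and no myotube peak was listed there although its myotube mean of 2.57 RPKM was the highest of the isolated peaks at least 200 bp wide. The sign at this peak depended on the libraries: the log2 fold change was 0.33 without myoblast replicate 2 and 0.20 without myotube replicate 1. The next log2 fold changes were -0.32 (chromosome 19, 34327848 to 34328330), -0.60 (chromosome 5, 45825267 to 45825874) and -0.71 (chromosome 14, 102273106 to 102273977). None of these 3 was called, and each overlapped a myotube peak, by 273, 106 and 383 bp. With scaling on peak-free windows all 3 were called lower, at -1.08, -1.36 and -1.46, and the chromosome 14 peak was also called without myoblast replicate 1 (-1.11). The fifth, chromosome 11, 58769793 to 58770658 (-0.85), was called (limma adjusted p = 0.0342) but lost that call with the replicate number as a block (-0.85), with read positions moved toward the nucleosome centre (-0.74), and without myoblast replicate 1 or 2 or myotube replicate 2.

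High myotube density in the remaining peaks rested on few reads. The peak at chromosome 1, 55627716 to 55628008, was among the 5 densest in each group, with means of 2.08 RPKM in myotubes and 3.29 RPKM in myoblasts. It held 2, 9 and 9 reads in myotubes and 10, 11 and 12 in myoblasts. It was not called (log2 fold change -0.71, limma adjusted p = 0.129), and a myotube peak covered all 292 bp of it. The peak at chromosome 3, 55146886 to 55147195, held 6, 2 and 15 reads in myotubes and 4, 5 and 7 in myoblasts, a log2 fold change of 0.38 that was not called (limma adjusted p = 0.455) and was -0.16 without myotube replicate 3. At chromosome 1, 188474586 to 188474867, there were 6, 4 and 8 reads in myotubes and 5, 4 and 7 in myoblasts (log2 fold change 0.28, limma adjusted p = 0.56). The peak at chromosome 8, 47577198 to 47577400, had 7, 2 and 3 against 4, 6 and 9 reads (log2 fold change -0.72, limma adjusted p = 0.199). Among the densest in myoblasts, chromosome 6, 98986773 to 98986990, was called lower (log2 fold change -2.23, limma adjusted p = 0.00374). The pair of peaks just inside the limit of 10000 bp, at 10001 and 10008 bp from a neighbour, had log2 fold changes of -0.77 and -1.09 (SE 0.80 and 0.62), and the pair just outside it, at 9994 and 9986 bp, -0.86 and -1.20 (SE 0.67 and 0.63).

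The same comparison was made for the 10 kb windows that hold an isolated peak. In a fit over 242621 windows with at least 30 reads (limma voom, adjusted p under 0.05), 12.7% of all windows were lower in myotubes and 69.5% higher. Of the 1764 windows with an isolated peak, 663 were lower (37.6%) and 46 higher (2.61%), and their median log2 fold change was -0.32 against 0.78 for all windows. These windows were chosen for a myoblast peak, though most of their bases lie in the flanks. Scaling on peak-free windows moved the median of all windows to 0.04 and that of these windows to -1.09, with 1606 lower and 0 higher; over all windows it called 3087 higher and 45313 lower. Without myoblast replicate 2 the main scaling gave 417 lower and 28 higher. The higher windows numbered 25 without myoblast replicate 1 and 30 without myotube replicate 3.

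The lowest of these windows was at chromosome 12, 17900001 to 17910000, with 0.552 ± 0.422 reads per 1000000 reads (RPM) in myotubes and 3.23 ± 0.395 RPM in myoblasts (SD, n = 3). Its log2 fold change was -2.69 (SE 0.39, limma adjusted p = 6.04e-07). Windows at chromosome 17, 17380001 to 17390000 (-2.32), and chromosome 5, 3410001 to 3420000 (-2.22), came next. The highest was at chromosome 15, 40210001 to 40220000, with 6.27, 6.70 and 6.01 RPM in myotubes and 3.44, 2.00 and 3.40 RPM in myoblasts, without overlap (log2 fold change 1.11, SE 0.22, limma adjusted p = 7.08e-05). Of the 5 highest windows, none was called with scaling on peak-free windows, where their log2 fold changes were 0.05 to 0.36. In the 46 higher windows the isolated peaks had flanks at 0.571 ± 0.0184 RPKM in myotubes and 0.379 ± 0.0333 RPKM in myoblasts. Inside those 46 peaks, by contrast, density was 0.972 ± 0.137 RPKM in myotubes and 1.70 ± 0.0706 RPKM in myoblasts (SD, n = 3). Per total reads, peaks and flanks thus went opposite ways there. Over peak-free windows those flanks were at 1.57 ± 0.0964 in myotubes and 1.76 ± 0.127 in myoblasts (SD, n = 3), the same order as inside the peaks. The peaks were chosen for high myoblast reads and the 46 windows for high myotube reads, so these values are a description.

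By strand, reads at the isolated peaks were offset in both groups. Plus-strand reads lay to the left of minus-strand reads by 97, 99 and 99 bp in myotubes and by 99, 113 and 101 bp in myoblasts (means 98.3 ± 1.155 and 104 ± 7.57 bp, SD, n = 3 each). Only distances with the plus-strand read on the left were searched, so the direction rests on the strand profile. At 110 bp left of the centre, plus-strand and minus-strand means were 0.411 and 0.319 RPKM in myotubes and 0.890 and 0.608 RPKM in myoblasts. At 110 bp right of it they were 0.322 and 0.419 RPKM in myotubes and 0.616 and 1.00 RPKM in myoblasts. The offset of a library rested on how many peaks entered: over the 830 peaks with no myoblast neighbour within 20 kb it was 92, 50 and 99 bp in myotubes and 54, 98 and 94 bp in myoblasts. The plus-strand share of reads in the peaks was 50.1%, 50.6% and 51.0% in myotubes and 51.7%, 52.1% and 52.0% in myoblasts, a difference of -1.32 percentage points without overlap. The peak boundaries come from the myoblast list, so the offsets and shares in the peaks are given with no test between the groups. In the flanks the shares were 50.04% ± 0.232 in myotubes and 49.8% ± 0.233 in myoblasts (SD, n = 3 each). The strand difference inside peaks hung on where reads are placed. Positions were moved toward the nucleosome centre by unequal steps, 75 bp for plus-strand and 29 bp for minus-strand reads. That choice was made after the data were seen for this measure, and the difference was then 3.77 points in the other direction. Per peak, the plus-strand share of myoblast reads ranged from 15.4% to 73.3% with a median of 52.6%, so no isolated peak was made of reads of 1 strand. It is unknown here whether the peak caller used strand.

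**Figure D5:**
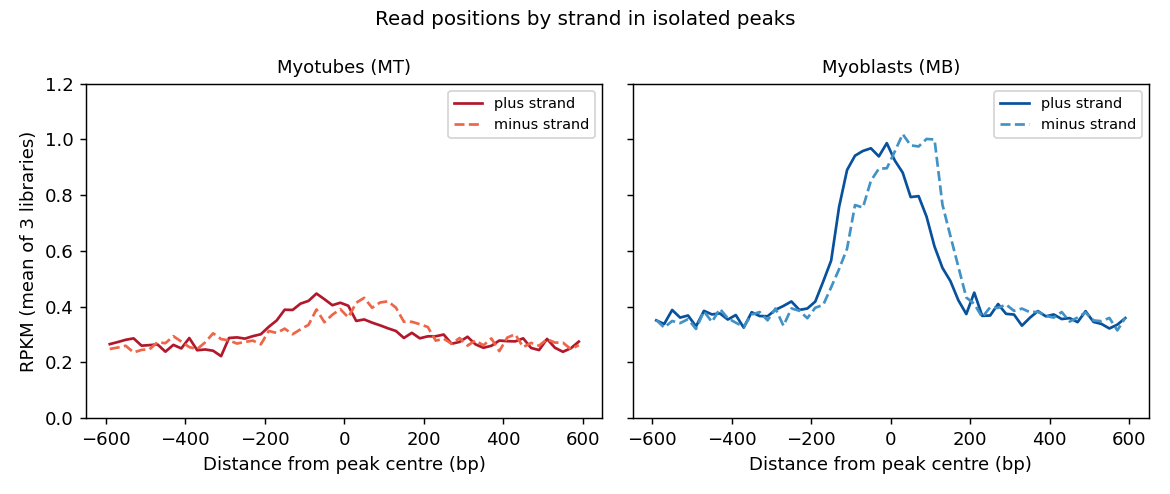
Plus-strand (solid) and minus-strand (dashed) read positions in 20 bp bins around the centres of the isolated peaks, in RPKM as the mean of 3 libraries, myotubes left and myoblasts right. In both groups the plus-strand reads lie left of the minus-strand reads, by 98.3 bp in myotubes and 104 bp in myoblasts on average.

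Isolated peaks were found on every chromosome counted. They made up 2.41% of the myoblast peaks on chromosome X (83 of 3443), the highest share, against 0.695% on chromosome 2 and 1.42% on chromosome 7, the lowest and highest shares among autosomes. Per covered Mb, chromosome X had 0.555 isolated peaks and 23.0 myoblast peaks in all, and chromosome 11 had 0.928 and 110.2. Between those chromosomes isolated peaks were thus less unevenly spread than the list as a whole. The myotube ratio of peak to flank was above 1 on each chromosome, from 1.43 on chromosome 17 to 1.70 on chromosome 3, with 1.67 ± 0.0794 on chromosome X and 1.53 ± 0.0143 on the autosomes together (SD, n = 3). Its counterpart in myoblasts was 3.20 ± 0.122 on chromosome X and 3.01 ± 0.0418 on the autosomes.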

How the data were processed

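The authors deposited, per library, 1 line per mapped read with its chromosome, position and strand and, per group, 1 list of peak boundaries without scores. The build is mm9 per the submitters' processing notes. Aligner, filters, peak caller, control and pooling: not given in the sources used here. No line was repeated within a library. Boundaries are printed as listed; whether they count from 0 or 1 is not stated. Reads were counted here per peak, per 5 kb flank and per 10 kb window, and fitted with limma 3.58.1 (voom) in R 4.3.3, scaled by total reads. Shifted positions have plus-strand reads moved 75 bp to the right and minus-strand reads moved 29 bp to the left. The fit was also run on simulated counts with as many rises as falls, unlike these data, so nothing is drawn from that run. Counting was done in Python 3.11.15 with pandas 2.3.3 and NumPy 2.4.6, intervals with SciPy 1.17.1, and plots with matplotlib 3.10.9. Wilson intervals are at 95%. Named peaks were the 5 highest in MB and in MT density (at least 200 bp wide), the 5 most negative and most positive log2 fold changes (at least 60 reads), the 3 widest and those beside the distance limit. Members, lists and tests were chosen with earlier results of these data known. The replicate numbers were not taken to pair the libraries. An annotation on another build was not used.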

Additional observations from a re-analysis of the deposited data

How the results depend on the processing

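The isolated peaks called lower (766) became 1574 with scaling on peak-free windows. They were 20 with a floor of 10 reads in 3 libraries, which left 22 isolated peaks to test. With 1 library left out they were 358 to 554, with 1113 to 1750 isolated peaks left to test. Windows with an isolated peak gave 1606 lower and 0 higher with scaling on peak-free windows, and 417 to 641 lower and 25 to 63 higher with 1 library left out. The replicate block gave 682 lower peaks, 687 lower and 51 higher windows; deviations of same-numbered libraries correlated at 0.04, -0.04 and 0.04 over peaks. The myotube ratio of peak to flank ran from 1.34 (flank bins with a myoblast read) to 1.56 over all settings. Relative to other peaks it was 1.03 at 200 to 400 bp and 0.861 to 1.01 with 1 library left out. The plus-strand difference was 3.77 points with shifted positions, and the offset difference, -6 bp, was 3.33 bp with an isolation of over 5000 bp; the causes were not tested. A myotube peak was found at 1.25% (50% covered) and 4.20% (within 1 kb) of isolated peaks, against 1.91% and 14.8% of other peaks. Log2 fold changes changed sign, without a call, at chromosome 4, 140080174 (0.13 with shifted positions, 0.33 and 0.20 without myoblast replicate 2 and myotube replicate 1, -0.28 to 0.33 over the libraries left out), at chromosome 3, 55146886 (-0.38 with scaling on peak-free windows, -0.16 to 0.91 with 1 library left out), at chromosome 1, 188474586 (-0.47 with that scaling), and at chromosome 4, 136352020 (-1.66 to 0.20 with 1 library left out). Depth limits what single peaks can show, at a median of 24 reads over 6 libraries.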

Other observations

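The flank on the side of the nearer myoblast peak was compared with the flank on the far side. Its density was 0.990, 0.990 and 0.999 times that of the far side in the myotube libraries and 1.02, 1.02 and 1.02 times in the myoblast libraries. The myoblast list set which side was nearer, so these values are given without a test.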
